A study of Caenorhabditis elegans with 18 samples.

Results

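The clec genes encode proteins with C-type lectin-like domains and are one of the largest gene families of the nematode Caenorhabditis elegans. Members were all genes whose symbol in the deposited table of protein-coding genes starts with clec-, which gave 239 of 20191 genes, together with the 1123 intron intervals listed for 234 of these genes alone. Another 32 intervals are listed for a clec gene and a second gene at once, and they were kept apart. RNA came from synchronized young adult hermaphrodites in which embryos had not yet formed. The groups were worms on auxin for 1 h, worms on auxin for 2 h and worms on ethanol for 2 h, with 6 libraries each and 1 library per group in each of 6 batches (I, II, V, VII, VIII and X). Worms of all 3 groups carried the transgene sun-1p::TIR1::mRuby together with mog-7::degron::gfp. In this strain the splicing factor MOG-7 carries a degron and GFP, and the plant protein TIR1, made from the germline promoter sun-1p, marks the degron for destruction once auxin is present. The tagged protein is therefore targeted in germ cells, while somatic cells are not. Auxin-treated worms that lack the degron or TIR1 are not analysed here, so auxin itself and the loss of MOG-7 cannot be told apart, and the 1 h group is set against a 2 h control. Whether the batches were separate cultures is not stated, so p-values measure the spread between these libraries.

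The C-type lectin-like domain is a compact fold held by disulfide bonds, and many vertebrate members bind sugars with the help of calcium. In C. elegans many clec proteins are predicted to be secreted, and sets of clec genes change when worms meet pathogens, so the family is often used as a readout of intestinal and epidermal immunity. Single members have other jobs, such as clec-38, which acts in neurons during axon guidance. Introns are removed by the spliceosome, and reads in an intron of polyadenylated RNA can come from transcripts in which that intron was kept or not yet removed. They can also come from another gene that overlaps the intron.

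Most of the family was silent or close to it in these worms. Counts were 0 in all 18 libraries for 27 members, and 109 more had reads but failed the filter on low counts, the highest with a mean of 10.2 counts per library. The filter left 103 clec genes of 13969 genes tested, so every count below covers those 103 and says nothing of the other 136. Expression was concentrated, with 15 members at a mean of 1000 counts or more and 70.2% of all clec reads in the top 10 members. Together clec-63 and clec-87 held 36.9%. All clec genes took 0.373 ± 0.0184% of gene reads after 1 h of auxin, 0.384 ± 0.0151% after 2 h and 0.367 ± 0.0169% on ethanol (SD, n = 6 each), and these ranges overlap. Gene reads numbered 18153020 to 30747645 per library and intron reads 186471 to 885408. The mRNA of mog-7 itself ranged over 34.8 to 43.1 CPM (gene counts scaled to library size with TMM factors) at 1 h, 38.5 to 45.6 CPM at 2 h and 37.1 to 41.5 CPM on ethanol, and it does not check the depletion because the degron acts on the protein.

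By level per length of transcript, the members named for abundance were clec-87, clec-63, clec-1, clec-88, clec-50, clec-91, clec-47 and clec-150. The gene clec-87 (WBGene00007709) averaged 786 ± 76.1 RPKM (CPM per kilobase of gene length) at 1 h, 670 ± 86 RPKM at 2 h and 808 ± 118 RPKM on ethanol (SD, n = 6 each). The gene clec-63 (WBGene00009394) averaged 515 ± 51.6 RPKM at 1 h, 591 ± 51 RPKM at 2 h and 499 ± 45.6 RPKM on ethanol. The order of this pair was the same in each group, and at 2 h the means differed by less than the SD of clec-87. On ethanol the next in order were clec-88 (224 ± 31.8 RPKM), clec-1 (217 ± 13.5 RPKM), clec-50 (195 ± 24.7 RPKM) and clec-91 (171 ± 25.3 RPKM). Below them came clec-47 (140 ± 16.7 RPKM) and clec-150 (120 ± 13.4 RPKM). From clec-88 to clec-91, each step between neighbours was smaller than the larger of their SDs, so neighbours in that order were not separated by level. The means of clec-88 and clec-91 themselves lay further apart than either SD.

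After 2 h on auxin, clec mRNAs shifted upwards by small amounts. Of the 103 members, 25 rose and 4 fell at an adjusted p under 0.05 (edgeR's quasi-likelihood test with Benjamini-Hochberg adjustment over all genes), which is 24.3% and 3.88% of members. Among all 13969 genes tested, 14.5% rose and 20.1% fell. The median log2 fold change was 0.21 over the members and 0.07 over all genes, and 92 members had a log2 fold change above 0 (89.3%, against 59.8% of all genes). Sizes were modest: the risers lay between 0.19 and 1.13 on the log2 scale, 19 of the 25 were under 1.5-fold, and 23 were higher in each of the 6 batches. With batch as a block in the model, 52 members rose and 5 fell (background 30.2% and 26.5%). Counted in either direction, 29 members were called (background 34.6%), and 19 without batch I.

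After 1 h there was little to see at this threshold. Only clec-1, clec-146 and clec-210 rose, 3 of 103 members, which is close to the 3.62% of all genes that rose (10.6% in either direction). No member was called lower by edgeR or DESeq2 (0 each, 1 at an unadjusted p under 0.05), against 6.93% of all genes. The median log2 fold change was 0.05 over the members and 0.00 over all genes. With batch as a block, 18 members rose and 4 fell (background 12.5% and 18.2%), and without batch I a single call was left.

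Between the hours, 7 members were higher at 2 h than at 1 h, namely clec-84, clec-85, clec-149, clec-150, clec-173, clec-186 and clec-187, and these are 6.8% of members against a background of 2.94% (6.89% in either direction). None was called lower by edgeR or DESeq2 (0 each, 2 at an unadjusted p under 0.05; background 3.95%). With batch as a block, 36 were higher and 5 lower (background 16.4% and 16.3%). The 7 calls became 3 without batch I and 4 without batch VIII. Comparisons that share a group of libraries are not independent of each other.

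**Figure D1:**
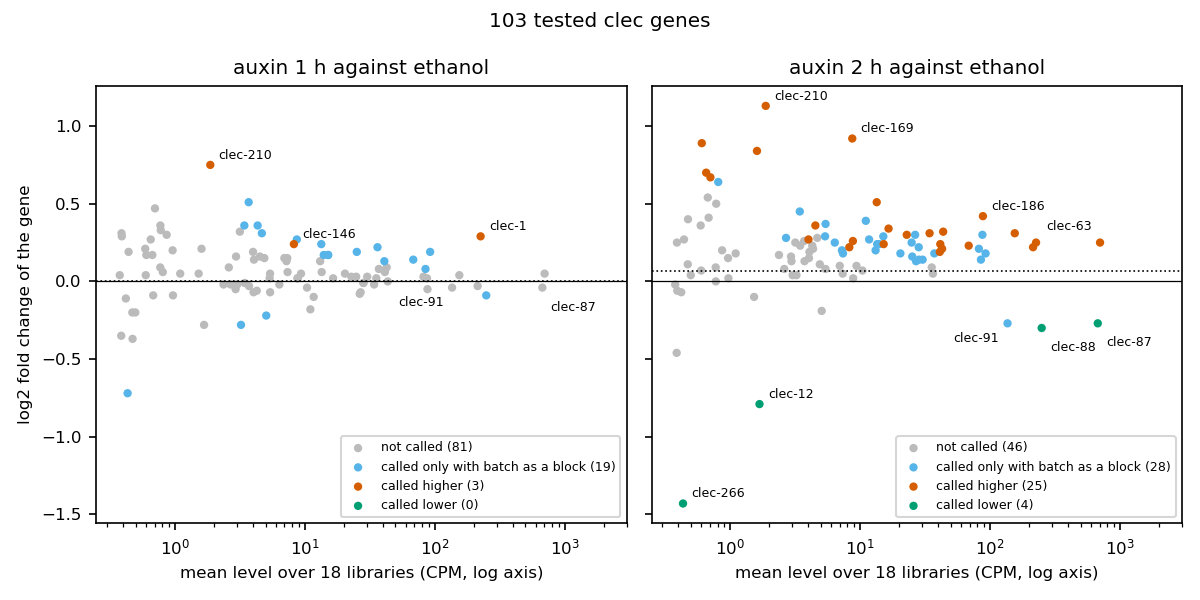
Log2 fold change of each of the 103 tested clec genes (y axis) against its mean level over 18 libraries (x axis, CPM, log scale), after 1 h of auxin (left) and 2 h of auxin (right), each against ethanol. Points are coloured by call, and the dotted line is the median of all tested genes (0.00 at 1 h, 0.07 at 2 h). At 2 h most points lie above that line, 25 are called higher and 4 lower, and the abundant genes clec-87, clec-88 and clec-91 lie below it.

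Among the abundant members, 3 stood below ethanol at 2 h. Levels of clec-87 had a lowest, median and highest value of 565, 728 and 743 CPM at 1 h, 446, 624 and 652 CPM at 2 h and 518, 757 and 806 CPM on ethanol. The 2 h and ethanol ranges overlap only through batch X, whose 3 libraries were each the lowest of their group, and within every batch the 2 h library was below the ethanol library. Against ethanol the 2 h difference came to -0.27 ± 0.101 on the log2 scale (SE, adjusted p = 0.0434, and 6.58e-08 with batch as a block), and the call was lost when any of batches I, II, V, VII or VIII was left out (adjusted p from 0.0848 to 0.12) or no filter was used (0.0595). The 1 h difference was -0.04 ± 0.101 (adjusted p = 0.875).

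The gene clec-88 (WBGene00019606) had lowest, median and highest values of 211, 267 and 286 CPM at 1 h, 167, 230 and 249 CPM at 2 h and 211, 282 and 308 CPM on ethanol. Again the ranges overlap and all 6 batches had less at 2 h than on ethanol. It fell by 0.30 ± 0.103 on the log2 scale at 2 h (adjusted p = 0.0298), a call lost without batch I, V, VII or VIII (adjusted p from 0.063 to 0.0852). It overlaps ctsa-4.1 on the same strand, and how reads on both genes were counted is not stated. The gene clec-91 (WBGene00014117) ran over 117, 145 and 161 CPM at 1 h, 91.8, 124 and 147 CPM at 2 h and 114, 153 and 169 CPM on ethanol. It did not pass the test at 2 h (log2 fold change -0.27 ± 0.11, adjusted p = 0.066) and did so with batch as a block (1.13e-07), by DESeq2 (0.0495), with library sizes alone (0.0335) and without batch X (0.033). Its 2 h library was the lower one in 6 of 6 batches.

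At 2 h these 3 genes moved in the same direction as the germline marker genes that were called. Of 16 germline markers, 8 fell and 0 rose at 2 h in edgeR's test (background 20.1% and 14.5% of all genes). The other markers were not called, and the median log2 fold change of the 16 was -0.17. Sperm markers, a separate list of 13 genes, did not go this way: 2 rose and 0 fell, with a median of 0.20. With batch as a block 11 sperm markers rose and 0 fell (background 30.2% and 26.5%). The summed level of the 16 germline markers ranged over 7450 to 8760 CPM at 1 h, 6040 to 7670 CPM at 2 h and 7600 to 9520 CPM on ethanol, and none of them was at 0. What part this has in the values of clec-87, clec-88 and clec-91 was not tested. In RNA from whole worms, fewer germ cells and less RNA per germ cell cannot be told apart. Without the 3 genes, the rest of the family took 0.263 ± 0.0233% of gene reads at 1 h, 0.291 ± 0.0202% at 2 h and 0.252 ± 0.0225% on ethanol (SD, n = 6 each).

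The other abundant members were higher at 2 h. Levels of clec-63 were 598, 657 and 779 CPM (lowest, median, highest) at 1 h, 696, 779 and 868 CPM at 2 h and 587, 657 and 730 CPM on ethanol. The 2 h and ethanol ranges overlap slightly, and all 6 batches were higher at 2 h. The log2 fold change was 0.25 ± 0.0721 (adjusted p = 0.0124, and 0.0562 without batch VIII). For clec-1, a member called at both times, the values were 230, 239 and 266 CPM at 1 h, 218, 229 and 266 CPM at 2 h and 183, 199 and 220 CPM on ethanol. Every 1 h library was above every ethanol library, and the rise was 0.29 ± 0.0555 on the log2 scale after the first hour (adjusted p = 0.00149). After 2 h the rise over ethanol was 0.25 ± 0.0555 (adjusted p = 0.00183). The difference between 2 h and 1 h was -0.04 ± 0.0554 (adjusted p = 0.692).

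The gene clec-150 had 162, 178 and 187 CPM at 2 h and 113, 148 and 156 CPM on ethanol, with no overlap of the groups. It rose by 0.31 ± 0.0715 on the log2 scale at 2 h (adjusted p = 0.00271) and stood 0.27 ± 0.0715 above 1 h (adjusted p = 0.0279). For clec-50 the increase of 0.22 ± 0.0783 passed narrowly at 2 h (adjusted p = 0.0312), and the call was lost without batch I, VII, VIII or X (adjusted p from 0.0573 to 0.104) or with library sizes alone (0.0604). The gene clec-47 was at 0.18 ± 0.115 at 2 h and did not pass (adjusted p = 0.217), whereas it did with batch as a block (0.000774) and without batch X (0.036).

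A set of moderately expressed members rose between the hours. The gene clec-186 (WBGene00014138, chromosome IV) had lowest, median and highest values of 69.2, 79.9 and 83.9 CPM at 1 h and 73.2, 79.2 and 90.7 CPM on ethanol, while the 2 h libraries ran over 101 to 115 CPM with a mean of 107 ± 5.86 CPM (SD, n = 6). Every 2 h library was above all libraries of the other 2 groups, while those overlap each other. On the log2 scale it rose at 2 h by 0.42 ± 0.058 over ethanol (adjusted p = 1.82e-05) and by 0.47 ± 0.058 over 1 h (adjusted p = 9.66e-05). The 1 h value against ethanol was -0.05 ± 0.0582 (adjusted p = 0.653).

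The gene clec-85, which depends on the p38 kinase PMK-1 for its basal expression in worms, ran over 35.7, 40.2 and 46 CPM at 1 h, 46, 49.5 and 57.5 CPM at 2 h and 35.1, 41.6 and 44 CPM on ethanol. All 2 h libraries were above all ethanol libraries. It rose by 0.32 ± 0.0703 on the log2 scale at 2 h (adjusted p = 0.00152) and was 0.32 ± 0.0702 above 1 h (adjusted p = 0.00924, and 0.0684 without batch I), with 0.00 ± 0.0705 at 1 h (adjusted p = 0.99). The gene clec-84 rose by 0.31 ± 0.0666 at 2 h against ethanol (adjusted p = 0.00123) and by 0.34 ± 0.0666 against 1 h (adjusted p = 0.00464). For clec-173 the 2 h libraries were tightly grouped, from 18.6 to 19.7 CPM, against 12.8 to 17.2 CPM on ethanol. It rose by 0.34 ± 0.0663 against ethanol (adjusted p = 0.000598) and by 0.32 ± 0.0661 against 1 h (adjusted p = 0.00622).

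The largest relative rises were in members of low abundance. The gene clec-210 had 1.25, 2 and 2.46 CPM at 1 h, 1.63, 2.61 and 3.5 CPM at 2 h and 0.628, 1.19 and 1.53 CPM on ethanol, from 14 to 75 counts per library. Its 2 h and ethanol ranges do not overlap. The 1 h level was 1.69-fold that on ethanol (log2 0.75 ± 0.214, adjusted p = 0.0264) and the 2 h level 2.18-fold (log2 1.13 ± 0.211, adjusted p = 0.000407), and the 1 h call was lost without batch I, V, VIII or X (adjusted p from 0.0612 to 0.0937). Levels of clec-169 were 8.76, 9.87 and 23.9 CPM at 2 h and 4.08, 5.69 and 12 CPM on ethanol, and batch X gave the highest value of each group. The rise at 2 h was 0.92 ± 0.284 (adjusted p = 0.0165, and 0.0532 without batch VII). For clec-57 the values were 13.2, 15.6 and 20.4 CPM at 2 h and 9.88, 10.8 and 14.2 CPM on ethanol, with a rise of 0.51 ± 0.108 (adjusted p = 0.00119) that was seen in 6 of 6 batches.

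A further 4 low members passed at 2 h, and each call was lost when certain batches were left out. With batch as a block all 4 passed in edgeR's test (adjusted p = 0.00679 for clec-167, 0.000733 for clec-180, 0.0113 for clec-233 and 0.00945 for clec-185). Levels at 2 h were above ethanol in 6 of 6 batches for clec-180 and clec-185, and in 5 of 6 for clec-167 and clec-233. The gene clec-167 rose by 0.89 ± 0.275 (adjusted p = 0.017, 0.0742 to 0.0794 without batch I or VIII) and clec-180 by 0.84 ± 0.276 (adjusted p = 0.0236, 0.0635 to 0.0713 without batch I or VIII). The gene clec-233 rose by 0.70 ± 0.247 (adjusted p = 0.0321, 0.0732 to 0.171 without batch I, II or VII, 0.0511 by DESeq2) and clec-185 by 0.67 ± 0.239 (adjusted p = 0.0339, 0.0502 to 0.158 without batch II, V or X, 0.0577 by DESeq2). The gene clec-146 had 7.48, 9.1 and 9.26 CPM at 1 h and 6.55, 7.58 and 8.11 CPM on ethanol, which overlap. Its rise at 1 h was 0.24 ± 0.0715 (adjusted p = 0.038), a call lost without batch I, II or VII (0.122 to 0.16), with library sizes alone (0.0697) and with no filter (0.0504). The 9 risers at 2 h outside the naming rule were clec-51, clec-56, clec-65, clec-80, clec-149, clec-160, clec-178, clec-187 and clec-264, at 0.19 to 0.36 on the log2 scale, listed after their values were seen.

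A pair of low members fell at 2 h. The gene clec-12 had 0.714, 1.29 and 1.93 CPM at 2 h and 1.45, 2.18 and 2.51 CPM on ethanol, from 19 to 61 counts in those libraries. The ranges overlap, each batch was lower at 2 h, and the log2 fold change was -0.79 ± 0.201 (adjusted p = 0.00508). The gene clec-266 had 2 to 10 counts per library at 2 h and 5 to 31 on ethanol, with a log2 fold change of -1.43 ± 0.43 (adjusted p = 0.0143), which at such counts is loosely fixed.

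**Figure D2:**
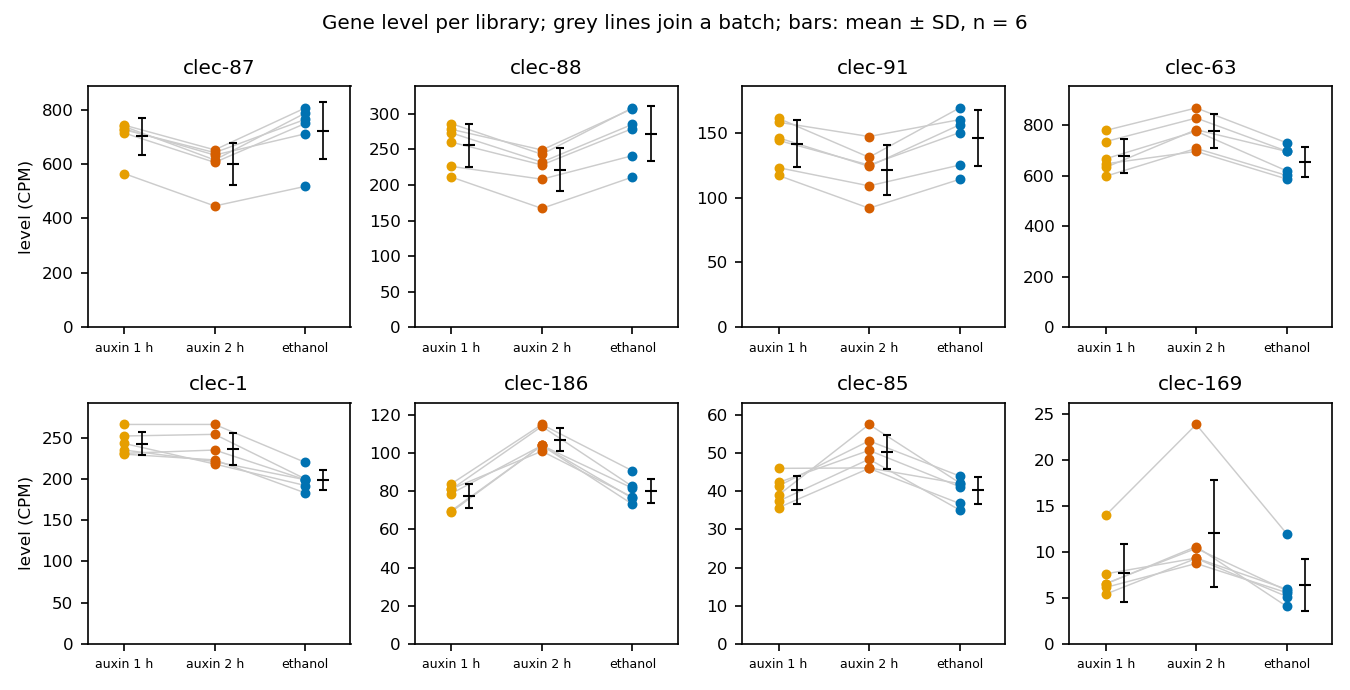
Level in CPM (y axis, from 0) of 8 clec genes in each of the 18 libraries, by group: auxin 1 h, auxin 2 h and ethanol. Points are libraries, grey lines join the 3 libraries of a batch, and bars give the mean ± SD (n = 6). At 2 h clec-87, clec-88 and clec-91 are below ethanol in every batch, clec-63, clec-1, clec-186, clec-85 and clec-169 are above it in every batch, and for clec-1 and clec-169 the same is seen at 1 h.

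Members with described roles in infection were a mixed group. The gene clec-60, which is induced strongly in worms infected with Staphylococcus aureus or Microbacterium nematophilum, was almost silent here, with 0 to 5 counts in any library, and was not tested. Also untested were clec-39, needed for resistance to Serratia marcescens (0 to 1 counts), the axon guidance gene clec-38 (0 to 2 counts) and clec-42 (2 to 20 counts). The PMK-1-dependent gene clec-67 was measured at 4.81 ± 0.734 CPM at 2 h and 4.1 ± 0.866 CPM on ethanol and did not pass the test (log2 fold change 0.23 ± 0.148, adjusted p = 0.245, and 0.136 with the block). Another 4 members, clec-4, clec-41, clec-49 and clec-52, did not pass at 2 h and passed with batch as a block. Of these, clec-41, linked to Bacillus thuringiensis infection, had 88.9, 94.9 and 130 CPM at 2 h and 68.5, 75.3 and 113 CPM on ethanol. The groups overlap because batch VII was the highest in both. The log2 fold change was 0.30 ± 0.124, with an adjusted p of 0.0646, of 2.72e-08 with the block and of 0.00215 without batch VII. For clec-4 it was 0.39 ± 0.306 (adjusted p = 0.324, and 0.0102 with the block). For clec-49 it was 0.22 ± 0.108 (adjusted p = 0.113, and 0.0016 with the block), and for clec-52 0.29 ± 0.142 (adjusted p = 0.113, 5.91e-05 with the block and 0.0441 without batch VII).

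Many clec genes lie side by side in the genome. By the WBcel235 annotation, 84 members are on chromosome V, 53 on IV, 49 on II, 36 on I, 14 on III and 3 on X, and 125 members form 41 runs of neighbours, the longest of 13 genes. The 25 risers at 2 h comprised 12 of 31 tested members on chromosome IV, 7 of 33 on V, 3 of 20 on II and 3 of 7 on III, where 13.8%, 17.5%, 14.1% and 10.6% of all tested genes of those chromosomes rose. Of 53 tested members in runs 11 rose (20.8%), and of 50 outside runs 14 (28%). With batch as a block the numbers were 27 and 25. Picked after their values were seen, the runs with more than a single riser held clec-186 with clec-187, clec-167 with clec-169, clec-56 with clec-57, and clec-63 with clec-65. Reads from near-identical copies may have been split or dropped in the deposited counts, since the treatment of reads that match several genes is not stated.

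Few of the tested clec introns gained reads, unlike most of all the introns that passed the filter on low counts. Of the 1123 clec intervals, 522 had no read in any library and 20, in 15 host genes, passed the filter. At 1 h, 4 of these 20 introns rose (20%), whereas 83.2% of the 15325 introns tested did. At 2 h it was 8 of 20 (40%) against 85.1%. The median log2 fold change of the 20 was 0.16 at 1 h and 0.46 at 2 h, against 2.93 and 3.33 over all introns. By edgeR and DESeq2, 0 clec introns fell at either time (0 at an unadjusted p under 0.05), against 0.927% and 1.37% of all introns by edgeR. With no filter, 601 clec introns were tested, with 12 higher and 1 lower at 1 h and, at 2 h, 22 higher and 2 lower. Of all 82049 introns in that fit, 23519 were higher at 1 h and 25753 at 2 h. The filter keeps an intron for its reads in any group, so the shares rest on which introns passed, and 17 of the 20 had a mean of 10 or more counts on ethanol. Both introns of clec-91 were under that mean on ethanol and passed by their auxin reads. With TMM factors computed on the intron counts, which take up most of the general shift, 3 clec introns were higher and 17 lower at both times. Of all 15325 introns in that fit, 7794 were higher and 4175 lower at 1 h, and 7961 were higher and 4314 lower at 2 h. Under that scaling the 3 higher ones were those of clec-91 and intron 2 of clec-87, and intron 1 of clec-87 fell by 0.40 at 1 h and by 0.49 at 2 h on the log2 scale.

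The 4 introns that rose at both times were the 2 introns of clec-87 and the 2 introns of clec-91. Intron 2 of clec-91 (chromosome I, 9126427 to 9126484, minus strand, WBcel235, 58 bases) had lowest, median and highest values of 4.04, 5.94 and 7.44 CPM at 1 h, 10.4, 12.1 and 16.7 CPM at 2 h and 0.0529, 0.379 and 0.522 CPM on ethanol, where it had 1 to 13 counts per library. No library of one group overlapped another group. Over ethanol it was 15.8-fold higher after the first hour (log2 3.98 ± 0.214, adjusted p = 2.70e-24) and 34.3-fold higher after the second (log2 5.10 ± 0.206, adjusted p = 4.55e-30). Intron 1 (9126855 to 9126906, 52 bases) had 2.78, 3.49 and 5.02 CPM at 1 h, 6.17, 8.21 and 9.75 CPM at 2 h and 0.132, 0.191 and 0.333 CPM on ethanol (3 to 9 counts), and its folds were close to those of intron 2, at 15.7 and 34.4. Both rose further between the hours, by 1.12 ± 0.144 and 1.13 ± 0.139 on the log2 scale for introns 2 and 1 (adjusted p = 1.05e-07 and 4.86e-08).

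Both introns of clec-87 are also short. Intron 2 (chromosome I, 10184830 to 10184878, minus strand, 49 bases) had 110, 190 and 277 counts at 1 h, 135, 213 and 258 at 2 h and 4, 17 and 24 on ethanol. Intron 1 (10185246 to 10185295, 50 bases) had 103, 158 and 253 counts at 1 h, 114, 195 and 228 at 2 h and 17, 55 and 70 on ethanol. The auxin values of the pair were alike, and on ethanol intron 1 held more reads, at 2.07 ± 0.693 CPM against 0.676 ± 0.373 CPM for intron 2 (SD, n = 6). Relative to ethanol, intron 2 was 11.6-fold higher at 1 h and at 2 h 14-fold higher (log2 3.54 ± 0.206 and 3.81 ± 0.205, adjusted p = 9.88e-23 and 1.66e-24). For intron 1 the folds were 3.27 and 3.93 (log2 1.71 ± 0.176 and 1.97 ± 0.175, adjusted p = 3.39e-13 and 1.37e-15). The difference between the introns was not tested. Neither passed the test between 2 h and 1 h (log2 0.27 ± 0.154 and 0.26 ± 0.157, adjusted p = 0.174 and 0.198), and both did with batch as a block (0.0377 and 0.035).

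The sole intron of clec-88 (chromosome II, 6365913 to 6365981, plus strand, 69 bases) is listed for clec-88 and ctsa-4.1 and is annotated as an intron of clec-88 alone, so it is outside the 20. Its lowest, median and highest values were 1.76, 2.41 and 2.9 CPM at 1 h, 3.09, 4.68 and 5.04 CPM at 2 h and 0.222, 0.615 and 0.793 CPM on ethanol (6 to 18 counts), and these ranges do not overlap. The 1 h level was 4.48-fold and the 2 h level 8.02-fold that on ethanol (log2 2.16 ± 0.21 and 3.00 ± 0.199, adjusted p = 5.32e-14 and 1.19e-20), and by 0.84 ± 0.157 on the log2 scale between the hours (adjusted p = 5.86e-05). The genes whose introns gained reads this way are the same 3 abundant members whose mRNA was lower at 2 h in every batch. For comparison, 83 of the 85 tested introns of the germline markers rose at 1 h (median log2 4.44; 83.2% of all introns) and 81 at 2 h (median 4.61; 85.1% of all introns). Of the 10 tested introns of intestinal markers, 2 rose at 1 h and 3 at 2 h (medians 0.23 and 0.32), and of the 23 of muscle markers 1 and 11 (medians 0.15 and 0.32). Of the 26 tested introns of immune transcription factors, 20 rose at 1 h and 18 at 2 h (medians 2.53 and 2.82). A dependence of clec-87, clec-88 and clec-91 on germ cells was not tested.

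The remaining 16 introns sat in 13 genes and stayed near 0 at 1 h, between -0.36 and 0.31 on the log2 scale, with 0 called by edgeR and 0 at an unadjusted p under 0.05. At 2 h they lay between -0.18 and 0.80, and 4 were called higher. These were intron 3 of clec-186 (0.80 ± 0.241, adjusted p = 0.00204), intron 3 of clec-63 (0.66 ± 0.25, adjusted p = 0.0127, 0.0642 to 0.07 without batch II or VIII), intron 2 of clec-50 (0.51 ± 0.176, adjusted p = 0.006) and the sole intron of clec-84 (0.46 ± 0.18, adjusted p = 0.0156, 0.0511 to 0.0672 without batch V or VII). All 4 were lower than ethanol with TMM factors of the intron counts. All 4 host genes rose at the same time. Tested relative to its host gene, none of the 4 passed (log2 0.38, 0.41, 0.28 and 0.15, adjusted p = 0.143, 0.122, 0.114 and 0.43), whereas the introns of clec-87 and clec-91 did (2.25 to 5.37 at 2 h). The background was 85.1% of 13955 tested introns whose host gene had reads in every library. The intron of clec-84 also contains an exon of Y54G2A.15 on the other strand, and whether intron reads were counted by strand is not stated. Between the hours, 5 of the 20 introns were higher at 2 h (25%, background 30.2%), and 8 were with batch as a block (background 35.7%). They were both introns of clec-91, those named for clec-50 and clec-84, and, named after its value was seen, intron 2 of clec-48 (0.72 ± 0.25, adjusted p = 0.0233). Without batch V or batch VII 2 of the 5 calls were left, and without batch I, II or VIII 3.

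**Figure D3:**
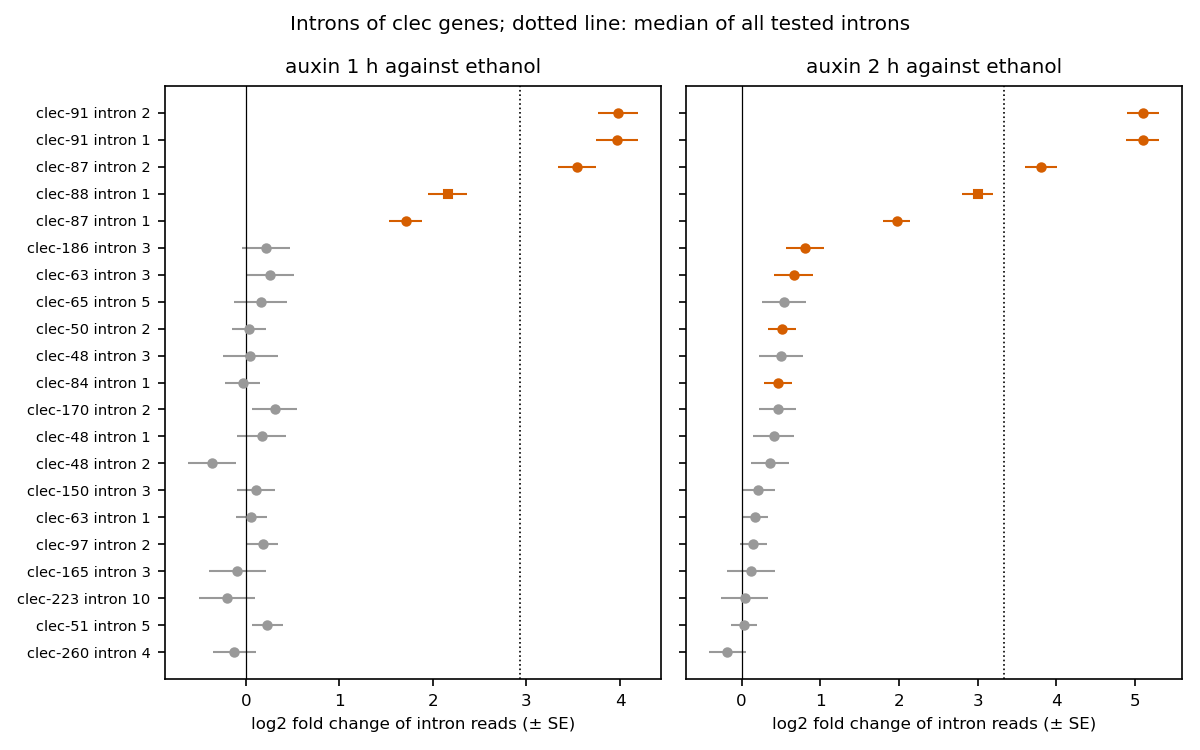
Log2 fold change ± SE of intron reads (x axis) for the 20 tested introns of clec genes (circles) and the sole intron of clec-88, which is listed for 2 genes (square), after 1 h (left) and 2 h (right) of auxin against ethanol. Orange marks an adjusted p under 0.05 and the dotted line the median of all tested introns (2.93 and 3.33). Only introns of clec-87, clec-88 and clec-91 lie above 1 at either time.

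Some clec introns held many reads relative to their host gene in every group, at low counts. Intron 4 of clec-260 (1636 bases) had 1510 ± 510 reads per 1000 reads of its host gene at 1 h, 1390 ± 297 at 2 h and 1630 ± 268 on ethanol. On average it thus collected more reads than the gene itself, but both numbers are small. The intron had 11 to 31 counts per library and the gene 8 to 25. Intron 3 of clec-165 had 160 ± 58.1, 177 ± 109 and 191 ± 92.6 per 1000 in the same order, and intron 2 of clec-97 had 116 ± 19.3, 109 ± 15.4 and 113 ± 20.2 (SD, n = 6 each). Counts per library were 5 to 34 for the intron of clec-165 and 25 to 63 for that of clec-97. None of the 3 introns passed edgeR's test at either time.

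Pooled over all 1123 intervals, clec genes had 15.8 ± 2 intron reads per 1000 gene reads at 1 h, 20 ± 2.33 at 2 h and 9.37 ± 0.478 on ethanol (SD, n = 6 each). The ratio to ethanol was 1.68 at 1 h and 2.13 at 2 h. The same ratios over all intervals and genes were 2.69 and 3.28. Of 24024 clec intron reads, 38.4% were in clec-87 and clec-91. Intron reads of clec-91 per 1000 of its gene reads averaged 67 ± 10.7 at 1 h, 171 ± 12.6 at 2 h and 3.95 ± 1.66 on ethanol, and those of clec-87 averaged 20.7 ± 3.14 at 1 h, 29.3 ± 4.08 at 2 h and 3.83 ± 0.613 on ethanol. Without this pair, a set of genes left out after their values were seen, the family had 12 ± 1.06 at 1 h, 12.4 ± 1.08 at 2 h and 11.1 ± 0.703 on ethanol. This remainder holds the gene reads of clec-88 but not its intron, which also gained reads and is outside the 1123 intervals. That leaves a ratio of 1.08 at 1 h and 1.11 at 2 h, with the auxin library the higher one in 6 of 6 batches at 1 h and in 5 of 6 at 2 h.

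**Figure D4:**
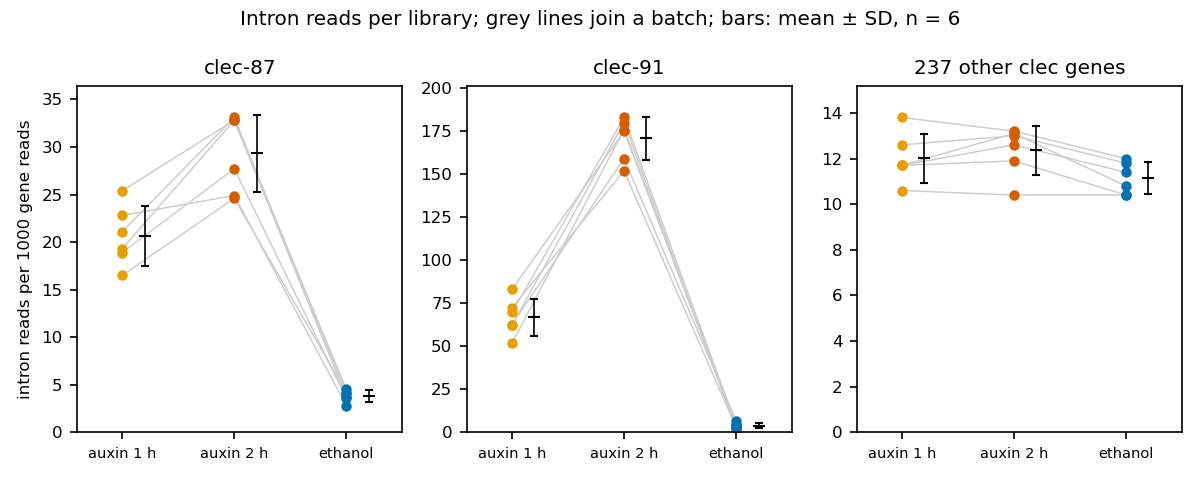
Intron reads per 1000 gene reads (y axis, from 0, scaled per panel) for clec-87, clec-91 and the 237 other clec genes in each of the 18 libraries, by group: auxin 1 h, auxin 2 h and ethanol. Points are libraries, grey lines join batches and bars give the mean ± SD (n = 6). For clec-87 and clec-91 the auxin libraries are all above the ethanol libraries, and for the other genes the means are 12, 12.4 and 11.1 and the groups overlap. The other genes include the gene reads of clec-88 but not its intron, which is listed for another gene as well.

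Other genes of worm immunity were set beside the family, with log2 fold changes at 2 h against ethanol and a background of 14.5% of all genes higher. After 2 h, 10 of 15 tested saposin-like spp genes (pore-forming antimicrobial proteins) rose, with spp-8 at 0.42 (adjusted p = 0.00802) and spp-4 at 0.34 (adjusted p = 0.00213). Of the other immune effectors 5 of 18 rose, among them dod-19 at 0.40 (adjusted p = 0.000726) and irg-4 at 0.42 (adjusted p = 0.0361). Antimicrobial peptides rose in 3 of 13 cases, with cnc-10 at 0.31 (adjusted p = 0.0131), and galectins, a second lectin family, in 3 of 12 cases, with lec-5 at 0.19 (adjusted p = 0.000726). Of 12 lysozyme genes ilys-5 alone rose, by 0.18 (adjusted p = 0.00703).

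In a list of 10 signalling genes built around the PMK-1 pathway, 3 rose, namely tir-1, kgb-1 and tpa-1. The adaptor of that pathway, tir-1, was at 0.23 (adjusted p = 0.0252). Of 12 immune transcription factors 2 rose, with zip-2 at 0.19 (adjusted p = 0.0348). Of the 12 galectins and 15 saposin-like genes, 10 and 13 rose with batch as a block, and 1 galectin fell. In that fit 13 of the 18 other effectors, 8 of 12 lysozymes and 6 of 13 antimicrobial peptides also rose, against a background of 30.2%. So did 5 of 10 genes of the PMK-1 list and 5 of 12 transcription factors. Over these 7 lists, list medians at 2 h were 0.05 to 0.28 against 0.07 over all genes. Among tissue markers at 2 h, 5 of 8 muscle and 5 of 11 neuronal markers rose and 1 neuronal marker fell. The 2 of 11 intestinal, 1 of 9 hypodermal and 2 of 13 sperm markers that rose are shares close to the background of 14.5%. With the block, 11 sperm, 8 muscle, 7 neuronal, 7 intestinal and 3 hypodermal markers rose (background 30.2%), and 1 neuronal, 1 intestinal and 1 hypodermal marker fell. The summed level of the intestinal markers was 6320 to 7190 CPM at 1 h, 6360 to 7560 CPM at 2 h and 5800 to 6800 CPM on ethanol. For muscle markers it was 8950 to 10700 CPM at 1 h, 9450 to 11700 CPM at 2 h and 8200 to 10300 CPM on ethanol, and no marker was at 0 in either list. The part of these values in the rises of clec genes was not tested.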

How the data were processed

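The authors deposited raw read counts per protein-coding gene and per intron interval for 18 poly-A libraries (stranded kit, per the labels' protocols). The submitters' processing notes name Trimmomatic, cutadapt, STAR, SAMtools, Picard, featureCounts, limma and edgeR, without versions. The build is not given in the sources used here; 98.2% of all intervals (99.4% of the clec intervals) match introns of WBcel235, and 3 members have another or no symbol there. Members and lists were chosen with earlier results of these data known.

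Here edgeR 4.0.16 (R 4.3.3) fitted all libraries with group as the only factor, TMM factors, filterByExpr (minimum count 10) and the quasi-likelihood test; introns used the library sizes and factors of the gene table. A standard error (SE) is a log2 fold change, without its sign, over the square root of its F. Calls need an adjusted p under 0.05. The labels name the batches, which pair the libraries: across genes, deviations from group means correlated at 0.146 to 0.674 within batches and at -0.522 to 0.386 between batches and groups. No libraries were duplicates. DESeq2 1.42.0, other scalings and filters, a block and left-out batches were alternatives. Named genes were the 8 highest by RPKM, up to 8 called rises and falls against ethanol (4 between hours), up to 8 called introns with a mean of at least 10 counts, and members with described roles. The fits were tested on simulated data. The biological coefficient of variation was 0.106 for genes and 0.146 for introns. 0 columns were without a sample.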

Additional observations from a re-analysis of the deposited data

Results flagged for a closer look

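Over 108 groups of 6 libraries, 15 held a library far from the other 5 by Dixon's test (critical value 0.625), where chance flags about 5% of groups. In batch X, clec-87 was the lowest of its group at 1 h (565 CPM, others from 714), at 2 h (446 CPM, others from 606) and on ethanol (518 CPM, others from 711), and intron 2 of clec-87 was lowest at 2 h (5.95 CPM, others from 9.21). Batch X was the highest for clec-169 at 1 h (14 CPM, others to 7.63), at 2 h (23.9 CPM, others to 10.6) and on ethanol (12 CPM, others to 5.95). It was also the highest for clec-47 at 1 h (132 CPM) and on ethanol (105 CPM), for clec-57 at 1 h (16.6 CPM), and at 2 h for clec-146 (9.56 CPM) and clec-180 (3.53 CPM). Batch VII was the highest for clec-41 at 2 h (130 CPM, others to 98.2) and on ethanol (113 CPM, others to 83.7) and for clec-4 at 2 h (26.1 CPM, others to 14.5).

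The change against ethanol differed between 2 h and 1 h, tested as 2 h against 1 h with edgeR, for 5 named genes and 4 named introns. On the log2 scale the differences were 0.47 for clec-186 (adjusted p = 9.66e-05), 0.34 for clec-84 (adjusted p = 0.00464), 0.32 for clec-85 (adjusted p = 0.00924), 0.32 for clec-173 (adjusted p = 0.00622) and 0.27 for clec-150 (adjusted p = 0.0279). For introns they were 1.12 and 1.13 for introns 2 and 1 of clec-91, 0.49 for the sole intron of clec-84 and 0.47 for intron 2 of clec-50. The genes were higher at 2 h in 6 of 6 batches, and so were the introns of clec-91, with 5 of 6 for the introns of clec-84 and clec-50.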

How the results depend on the processing

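With batch as a replicate block, the counts of called clec genes became 22 at 1 h, 57 at 2 h and 41 between the hours (3, 29 and 7 without it), and 8 introns were called between the hours. DESeq2 called 5 clec genes at 1 h, all higher, where 604 of all 13969 genes were higher and 1063 lower. A test against a change of 1.5-fold (edgeR's glmTreat) called 0 clec genes in each comparison, with 0, 4 and 0 at an unadjusted p under 0.05. Few of all 13969 genes passed it: 14 higher and 34 lower at 1 h, 20 and 141 at 2 h, and 0 and 4 between the hours. Leaving out a batch gave 1 to 4 genes at 1 h, 19 to 32 at 2 h and 3 to 7 between the hours, and 4, 7 to 10 and 2 to 5 introns.

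With TMM factors computed on intron counts, the median of all introns was 0.89 at 1 h and 0.94 at 2 h, and 20 clec introns were called at each time (3 higher, 17 lower) and 3 between the hours. Of all 15325 introns, 7794 were higher and 4175 lower at 1 h, 7961 and 4314 at 2 h, and 1053 and 954 between the hours. Under that scaling, intron 1 of clec-87 was at -0.40 at 1 h and -0.49 at 2 h, and at 2 h the called introns of clec-186, clec-63, clec-50 and clec-84 were at -1.64, -1.77, -1.92 and -1.98. With no filter, 13 of 601 clec introns were called at 1 h (12 higher, 1 lower) and 24 at 2 h (22 higher, 2 lower); relative to host genes, 4 at 2 h.

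Pooled intron reads per 1000 gene reads were 10.9, 14.8 and 5.19 (1 h, 2 h, ethanol) with introns that pass the filter, 16.7 at 2 h without the clec intron with the most reads, and 12, 12.4 and 11.1 without clec-87 and clec-91 (added after seeing the data). All of these sets hold the gene reads of clec-88 but not its shared intron.

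Among named genes, signs turned for values at 1 h that were not called: with a batch left out, clec-50 ran over -0.06 to 0.01 (above 0 without X), clec-85 over -0.03 to 0.03 (below 0 without II or V, and -0.01 with library sizes alone), clec-67 over -0.17 to 0.08 (above 0 without I), clec-4 over -0.27 to 0.18 (above 0 without VII) and clec-49 over -0.05 to 0.05 (above 0 without I, VIII or X, and 0.00 with a minimum count of 50 or with 2 groups only). Calls of low members rest on few counts, and 1103 of the 1123 clec introns failed the filter on low counts.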
